A study of Mus musculus with 6 samples.

Results

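Immortalized mouse preadipocytes, called brown (iBAT) in the titles, were pretreated with FGF8 and compared with untreated ones on day 3 of the protocol. This was after 2 days in induction medium and 1 day in differentiation medium. The comparison covered the 12892 of 26264 gene symbols whose mean in the 2 day 3 libraries reached 20 normalized counts, which are the deposited counts divided by a size factor per library. As the study describes them, the cells came from the stromal vascular fraction of wild-type Bl6N mice. They had been immortalized by retroviral transfer of the SV40 large T antigen, which all groups carried. The pretreated cells had received 5.5 nM FGF8 for 48 h before induction. Both groups were then induced with insulin, triiodothyronine, IBMX, dexamethasone, indomethacin and rosiglitazone, and kept in insulin, triiodothyronine and rosiglitazone afterwards, so that a difference at day 3 is measured after the FGF8 had been withdrawn. Companion libraries of the same 2 treatments were taken directly after the pretreatment (D0) and after 7 days on differentiation medium (D7). Each of the 6 combinations is 1 library. No difference at day 3 therefore has a replicate check, no p-value is given, and the intervals below are 95% Clopper-Pearson intervals that cover counting error only.

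Brown fat cells arise from fibroblast-like precursors that lose their matrix-building program, switch on the nuclear receptor PPARgamma and its targets, fill with lipid and build many mitochondria. UCP1, a carrier of the inner mitochondrial membrane, lets these mitochondria release energy as heat. FGF8 is a secreted growth factor that binds FGF receptors and signals through the ERK kinases, whose activity is read out by feedback genes such as the Sprouty and DUSP families.

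The untreated day 3 library held 19468173 counts and the FGF8 library 38031701, a ratio of 1.95. Untreated cells at day 3 expressed defining fat cell genes. Adipoq, which encodes the adipokine adiponectin, had 1.47 normalized counts at D0 and 21274 at D3, and Cd36, a fatty acid transporter, had 2.94 and 33993. The brown fat transcription factor gene Zic1 was at 0 counts in both day 3 libraries although it had 149.8 and 136 normalized counts in the untreated and FGF8 libraries of D0. Other genes also set both D0 libraries apart from the 4 later ones. The noncoding RNA Xist had 3716 and 7473 normalized counts at D0 and between 7.02 and 21.1 later. Ifi202b, a p200 family gene, had 15439 and 7311 at D0 and at most 0.702 later. Gbp2b, a GTPase gene, had 7105 and 1197 at D0 and at most 1.27 later, Ptchd1 had 1156 and 1490.2 and at most 2.55, and Hoxa9, a gene of body position, had 5.88 and 7.68 and between 206 and 475. Y-linked Ddx3y was present in all 6 libraries. Xist, Ifi202b, Gbp2b, Ptchd1 and Ddx3y belong to a list of genes picked as informative of sex and strain. Whether every library has the strain that the study gives was not tested. Within the day 3 pair Xist, Ifi202b, Gbp2b and Ptchd1 were low in both libraries, but Hoxa9 had 206 normalized counts without and 475 with FGF8. Hoxc10, also a gene of body position, had 19.1 and 30.7 at D0 and 53.5 and 56.9 at D3. Hoxb9 went the other way, with 2472 and 2595 at D0 and 477 and 394 at D3. The titles call the cells brown, but the labels' growth protocol describes white preadipocytes. Whether the day 3 cells are of brown fat origin was not tested. Any course that starts at D0 crosses the difference between the D0 and the later libraries. The part of this difference in such a course was not tested. Whether the D0 libraries come from the same cell line as the later ones was not tested either, so a D0 value set beside day 3 may compare different cells.

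FGF8-pretreated cells at day 3 carried more transcripts of thermogenic, lipid, mitochondrial and glycolytic genes and fewer of matrix, progenitor, complement, chemokine and interferon-related genes. In all, 490 genes were at least 2-fold higher (3.8% of those compared) and 1557 were at least 2-fold lower (12.1%). At 4-fold or more there were 34 higher and 268 lower genes. The decreases were also the larger ones, with a median log2 fold change of -1.46 against 1.16 for the increases. Over all genes the median was 0.081, and 7154 genes (55.5%) lay above 0. The counting interval lay wholly past 2-fold for 202 of the higher and 1060 of the lower genes. The genes nearest the 2-fold limits were E2f2 (0.998, outside) and Etfb (inside) among the increases, and Rin1 (-0.998, outside) and Trim5 (inside) among the decreases. Mir1249 (mean 19.99) and Gm15441 (20.0) lay on either side of the limit on counts. With library totals in place of the size factors every log2 fold change moved by -0.11, and the changes below are best read relative to such a shift.

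**Figure D1:**
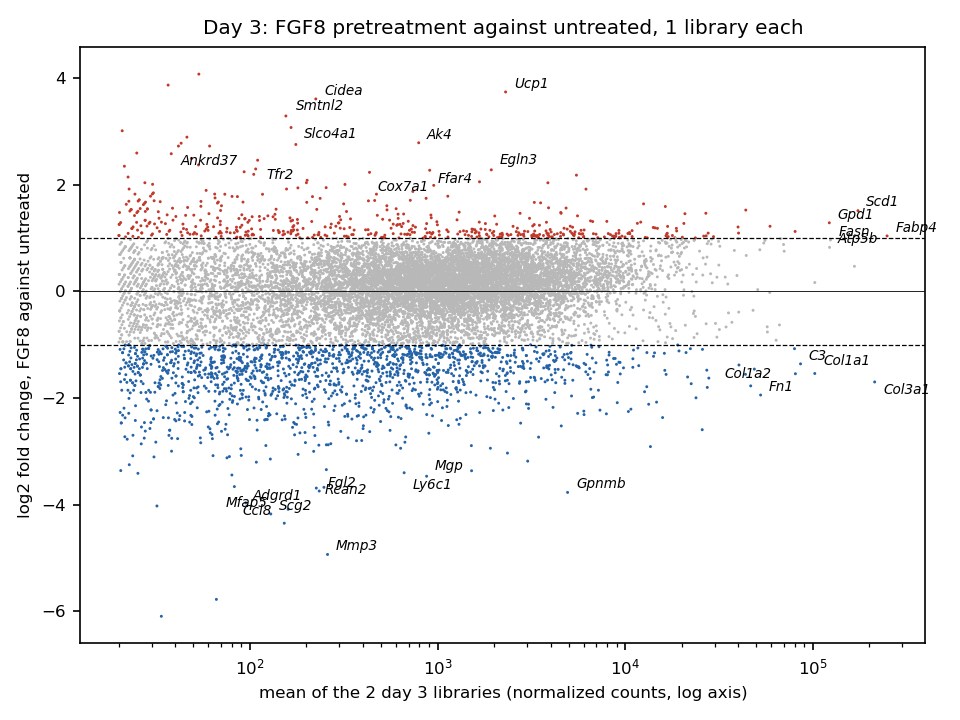
Each point is 1 of 12892 genes, with the mean of the 2 day 3 libraries in normalized counts on the x axis (log scale) and the log2 fold change of FGF8-pretreated against untreated cells on the y axis. Red points are at least 2-fold higher (490), blue points at least 2-fold lower (1557), and the named genes are the largest changes and the largest gains or losses of counts, with Ucp1 and Mmp3 at the 2 ends.

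Genes of the heat-producing fat cell led the increases once genes averaging under 100 normalized counts were set aside. Ucp1 went from 319 normalized counts in untreated cells to 4287 after FGF8, a log2 fold change of 3.74 (3.56 to 3.93). Cidea, which encodes a lipid droplet protein of brown fat, had 33.1 and 416, a log2 fold change of 3.61 (3.08 to 4.28). By D7 both genes had risen in both groups, Cidea to 23469.9 and 37734, and the difference there was 0.69. The other leading increases were in Smtnl2 (28 to 283), a smoothelin-like gene, the adenylate kinase gene Ak4 (199.8 to 1386), the anion transporter gene Slco4a1 (44.5 to 307), the transferrin receptor gene Tfr2 (33.1 to 187), Ankrd37 (35.6 to 179), the oxygen-sensing prolyl hydroxylase gene Egln3 (659 to 3206), the fatty acid receptor gene Ffar4 (311 to 1504) and the respiratory chain gene Cox7a1 (151 to 716). Their log2 fold changes ran from 3.29 for Smtnl2 to 2.23 for Cox7a1. Ak4, Ankrd37 and Egln3 were also higher after FGF8 at D0 (2.06, 1.77 and 2.79), whereas Cidea and Ffar4 had 0 counts in both D0 libraries. Below a mean of 100, and named after their values were seen, Depp1 (4 against 145 counts) and Mb, which encodes the oxygen-binding protein myoglobin (3 against 99 counts), had log2 fold changes of 4.08 (2.93 to 6.22) and 3.87 (2.60 to 6.49).

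The matrix-degrading protease gene Mmp3 had the largest decrease above the same limit. It lies on chromosome 9 of GRCm39 (7445822 to 7455975) and went from 503 normalized counts without to 15.4 with FGF8, a log2 fold change of -4.94 (-5.72 to -4.41). Next came the chemokine gene Ccl8 (291 to 13.3), the granin gene Scg2 (246 to 12.6) and Mfap5 (303 to 16.8), which encodes a protein of elastic microfibrils. Gpnmb, a transmembrane glycoprotein gene on chromosome 6 (49013426 to 49047863), was the most abundant of these genes and had 9183 and 671 normalized counts, a log2 fold change of -3.77 (-3.87 to -3.68). At D0 Gpnmb was 0.67 higher after FGF8, and at D7 it was 2215 against 502. Fgl2, Rcan2, which encodes a calcineurin regulator, the adhesion receptor gene Adgrd1, the calcification inhibitor gene Mgp and the surface antigen gene Ly6c1 completed the leading decreases, with log2 fold changes between -3.75 for Fgl2 and -3.40 for Ly6c1. Ly6c1 was low in FGF8-pretreated cells on every day, with 157, 114 and 61.8 normalized counts at D0, D3 and D7 against 1504, 1213 and 2015 in untreated cells. Among less abundant genes, which were named after their values were seen, the peptidase-like gene Pamr1 had 53 raw counts without and 0 with FGF8, at least 32.0-fold lower against a floor of 3 counts, and the melanosome gene Mlana had 103 and 2 counts, a log2 fold change of -5.78 (-9.61 to -4.66).

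**Figure D2:**
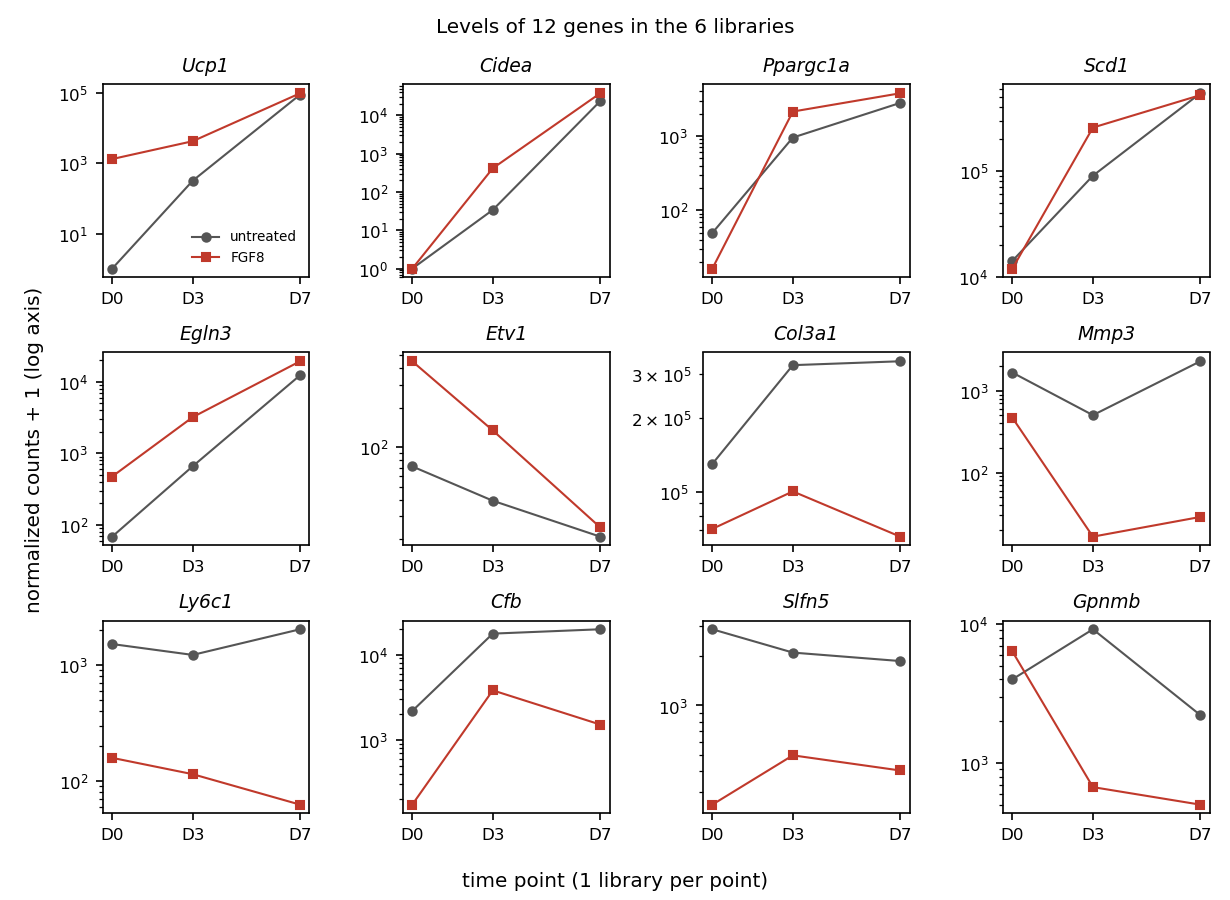
Normalized counts plus 1 (y axis, log scale, a different range in each panel) of 12 genes at D0, D3 and D7 (x axis), with 1 library per point, untreated cells in grey circles and FGF8-pretreated cells in red squares. Ucp1 and Cidea were apart at D3 and close at D7, whereas Mmp3, Ly6c1, Cfb and Slfn5 were apart at all 3 time points.

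Counted by abundance, the FGF8 library gained most in Fabp4, the fatty acid-binding protein of fat cells (162482 to 334151 normalized counts), in the desaturase gene Scd1 (90113 to 257431), in Gpd1, which supplies the glycerol backbone of triglycerides (71055 to 173366), in the fatty acid synthase gene Fasn (84007 to 163954) and in Atp5b, which encodes a subunit of ATP synthase (88450.5 to 156714). It lost most in Col3a1 (326050.2 to 100357), Col1a1 (152232 to 52308) and Col1a2 (120140.0 to 41147), which encode the fibrillar collagens of connective tissue, in the complement gene C3 (123612 to 48136) and in the fibronectin gene Fn1 (83538 to 21691). Fn1 was lower at D3 and D7 (-1.95 and -2.17) but not at D0 (0.72).

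Brown fat genes as a list were higher at day 3. Of 26 members compared, 13 were at least 2-fold higher (50%, against 3.8% of all genes) and 1 lower (3.85%, against 12.1%), with a median log2 fold change of 1.02. Besides Ucp1 and Cidea these were, among others, the proton channel gene Otop1 (509 to 1758), the estrogen-related receptor gene Esrrg (96.7 to 334), the receptor gene Ppara (2445 to 7228), the secreted factor gene Nrg4 (399.6 to 996) and the coactivator gene Ppargc1a (951 to 2129.7), which drives mitochondrial biogenesis. Ppargc1a was lower after FGF8 at D0 (48.5 and 15.4). Not every defining member passed the 2-fold rule. Prdm16, a transcription factor of brown fat identity, had 969 and 1397 normalized counts, Adrb3, the receptor through which noradrenaline activates brown fat, had 1495 and 2146, and Cox8b had 228 and 261 with an interval that included 0 (-0.06 to 0.46). Lhx8, a homeobox gene, was the member that was lower (1797 to 816), as it was at D7 (-1.34). In these bulk samples more fat cells and more RNA of these genes per cell cannot be told apart.

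Adipogenic transcription factor genes had no common direction. Among 29 compared, 2 were at least 2-fold higher (6.9%, against 3.8% of all genes) and 5 lower (17.2%, against 12.1%), with a median of -0.23, so that their shares lay near those of all genes. Pparg had 3305 and 5339 normalized counts, a log2 fold change of 0.69 (0.63 to 0.76), and Cebpa had 12872 and 17949 (0.48). The lipogenic factors Mlxipl (3952 to 8067) and Srebf1 (14976 to 26319) and the retinoid receptor gene Rxrg (339.8 to 707) had values of 1.03, 0.81 and 1.05. The early factors of the adipogenic cascade went different ways. Cebpb had 2767 and 4414, a value of 0.67, but Cebpd fell from 1769 to 606 (-1.54, interval -1.67 to -1.42) and Klf4 from 1036 to 201 (-2.36). Snai2, a mesenchymal repressor gene, fell from 1959 to 863.

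Lipid genes lay above 0 without exception. All 41 compared members of the list of lipid storage, synthesis and lipolysis had a log2 fold change above 0, against 55.5% of all genes. Of these 13 were at least 2-fold higher (31.7%, against 3.8%). The median was 0.82, with a range from 0.13 (Gpam) to 1.52 (Mogat1). The insulin-dependent glucose transporter gene Slc2a4 had 3055 and 7130.3 normalized counts and the lipid droplet gene Plin5 had 1922 and 4501. Lpl, the lipase that releases fatty acids from lipoproteins, differed less (139484 and 193276, 0.47), as did the triglyceride lipase gene Pnpla2 (28214 and 48036, 0.77). At D7 the same list had a median of 0.065 with no member 2-fold apart, where 1.12% of all genes were higher and 8.74% lower. At D0 it had a median of -0.20 over 30 members. Secreted fat cell factors as a list did not share this shift. Of 20 members, 2 were at least 2-fold higher (10%, against 3.8% of all genes) and 7 lower (35%, against 12.1%). The retinol carrier gene Rbp4 was at 1.11 (477 to 1029) and Adipoq at 0.64 (21274 and 33237).

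Mitochondrial genes were higher over their whole range of functions. Of 81 nuclear genes for respiratory chain subunits, 31 were at least 2-fold higher (38.3%, against 3.8% of all genes) and none lower. All 81 lay above 0, against 55.5% of all genes, with a median of 0.94. The leading members by fold were Ndufb4c (2.49), a copy of Ndufb4 whose reads may be shared with it, and Cox7a1, followed by Ndufa5 (2075 to 4903), the cytochrome c gene Cycs (10103 to 23517) and Cox5a (6787 to 14954). Fatty acid oxidation and the tricarboxylic acid cycle showed a median of 0.96 over 45 genes, with 15 at least 2-fold higher (33.3%). Idh3a had 24109 and 55680.5 normalized counts, and Acadm, a fatty acyl dehydrogenase gene, had 17649 and 37649.8. Cpt1a, the liver-type gate of fatty acid entry into mitochondria, lay below 0 (2735 and 2394, -0.19). All 78 mitochondrial ribosomal protein genes lay above 0 with a median of 0.75, though only 6 reached 2-fold. Of 79 cytosolic ribosomal protein genes 75 lay above 0 with a median of 0.30 and none reached 2-fold. Respiratory chain genes had a median of 0.042 at D0 and 0.42 at D7.

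**Figure D3:**
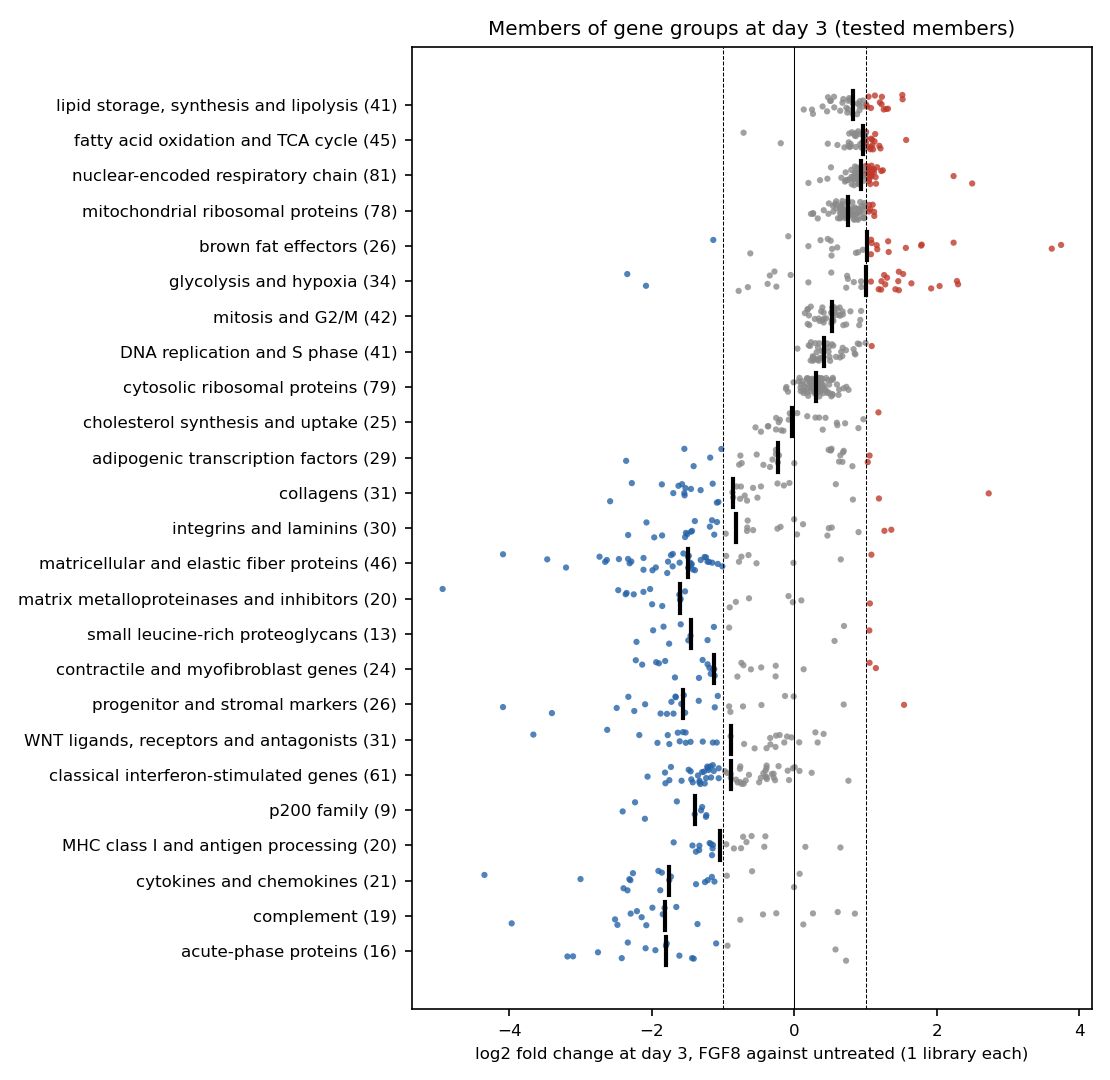
Each point is 1 gene, placed by its log2 fold change at day 3 (x axis, FGF8-pretreated against untreated, 1 library each), in rows of gene groups with the number of genes compared. Black bars are medians, dashed lines mark 2-fold, red and blue points lie past it, and points are spread vertically for visibility. Medians run from 1.02 for brown fat effectors to -1.82 for complement.

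Glycolytic and hypoxia-responsive genes were higher as well. These genes are known targets of the HIF factors, which bind a short motif in promoters when oxygen is low or prolyl hydroxylases are inactive. Of 34 members compared, 17 were at least 2-fold higher (50%, against 3.8% of all genes) and 2 lower, with a median of 1.01. Pdk1, which diverts pyruvate from the mitochondria, had 1516 and 6223 normalized counts, a log2 fold change of 2.04 (1.95 to 2.13). The mitophagy gene Bnip3 had 2582 and 9767, the phosphofructokinase gene Pfkl 6073 and 18956, the enolase gene Eno1 22621 and 65122, and the lactate dehydrogenase gene Ldha 14290.1 and 39469.9. Gapdh (2419 to 6682, 1.47) was among the higher genes, although this gene has many copies that can share reads. Vegfa (7347 and 13094, 0.83) and the glucose transporter gene Slc2a1 (837 and 1409, 0.75) stayed below 2-fold. The 2 lower members were Eno2, the neuronal enolase (536 to 105, -2.35), and Adm, a vasodilator peptide gene (836 to 197, -2.08). The mRNA of Hif1a itself had 4889.8 and 4026 (-0.28). The list was above 0 at D0 too, with a median of 0.73. There 14 of 34 members were at least 2-fold higher and 1 lower, against 7.27% and 10.8% of all genes. At D7 the median was 0.26 with 1 higher and 3 lower, against 1.12% and 8.74% of all genes.

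To set sequence beside these values, promoters were read from RefSeq windows (GRCm38.p6, each spanning an annotated start, most of it upstream), which were found for 10238 of the 12892 genes. The motif ACGTG, the core of the hypoxia response element, on either strand, was found in the windows of 21 of 33 glycolysis and hypoxia genes (63.6%), against 29.3% of all genes with a window and 31.3% of all genes at least 2-fold higher. Among the 17 members that were at least 2-fold higher, 10 held it (58.8%), so the motif was no more frequent in the higher members than in the list as a whole. The stretches below, located in GRCm39 by exact match of the whole window, are from the 4 members with the largest increases that held the motif before their start. They are 60 bases long, run 5′ to 3′ in the direction of the gene, and show matches on either strand in capitals.
Ankrd37 (chr8:46452888-46452947, minus strand): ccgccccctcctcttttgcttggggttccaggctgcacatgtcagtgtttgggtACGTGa
Egln3 (chr12:54250851-54250910, minus strand): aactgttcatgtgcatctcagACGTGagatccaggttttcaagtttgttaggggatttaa
Bnip3 (chr7:138511308-138511367, minus strand): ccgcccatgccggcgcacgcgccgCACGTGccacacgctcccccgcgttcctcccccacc
Ldha (chr7:46495168-46495227, plus strand): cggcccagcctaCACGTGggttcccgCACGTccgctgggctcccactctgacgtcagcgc
In Ldha and Bnip3 the match is palindromic (CACGTG) and thus counts on both strands. A 5-letter match is common by its length, and no binding was measured here.

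Cell cycle genes shifted upward by small amounts. All 41 genes of DNA replication and S phase and all 42 of mitosis lay above 0, against 55.5% of all genes. Their medians were 0.41 and 0.53. Only Rrm2, a subunit of ribonucleotide reductase, passed 2-fold (5204 to 11036). Birc5 (1144 and 2189, 0.94) had the largest value among the mitotic genes. Mki67, a common marker of proliferation, had 9870.0 and 12971 (0.39), and Mcm4 (5572 and 5738) had an interval that included 0. Among 22 cell cycle inhibitors and p53 targets only Trp53inp1 was past 2-fold (3850.0 to 1830.0). Cholesterol synthesis genes did not share a direction, with 12 of 25 above 0, a median of -0.029 and 1 past 2-fold, the low-count Idi1 (26.7 to 61.8).

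FGF feedback genes past 2-fold at day 3 made up shares near those of all genes. Of 20 compared, 1 was at least 2-fold higher (5%, against 3.8% of all genes) and 4 lower (20%, against 12.1%). Their median was 0.20, or 0.094 with library totals and 0.0095 at a mean of at least 100. At D0 10 were higher and 1 lower, against 7.27% and 10.8% of all genes, with a median of 1.08. Etv1, an ETS factor gene, was the 1 higher member, with 38.2 and 133 normalized counts at D3 (1.78, interval 1.24 to 2.41). At D0 it had 70.5 and 451. Dusp4 (1382 and 2530.5) and the ERK inhibitor gene Spry4 (840.0 and 1192) had 0.87 and 0.50 at D3, against 3.42 and 4.12 at D0. Dusp6 had 0.26 at D3 with an interval that included 0. Egr1, an immediate early gene, fell from 1109 to 248 (-2.15) and Il17rd, which dampens FGF signaling, from 686 to 258 (-1.41). The lower members also included Etv4 (48.4 to 23.2) and Spred3 (150.2 to 62.5), which were 4.41 and 1.84 higher at D0.

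Among FGF ligands and receptors, Fgf1 was higher (24.2 to 92.7, 1.89) and Fgf7 lower (1731 to 492, -1.81). Klb, the co-receptor for FGF21, had 1391 and 2717 (0.97), and Fgfr1 had 8807 and 5260.3 (-0.74). Fgf21 itself had 157 and 223. The heparan sulfate proteoglycan gene Sdc1 was the remaining member past 2-fold, at -1.10.

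Targets of the induction cocktail were looked at because both groups had received it. Glucocorticoid targets, which respond to dexamethasone, had a median of -0.043 over 20 genes. Of these 1 was higher (5%) and 3 were lower (15%), shares near the 3.8% and 12.1% of all genes, the lower ones being Sgk1 (1651 to 575), Errfi1 (6569.8 to 2889.9) and Lcn2 (1770.4 to 329). Fkbp5 (4522 and 3743) and Tsc22d3 (2618 and 3263), standard glucocorticoid readouts, stayed within 2-fold. Of 20 cAMP targets, which respond to IBMX, 2 were higher (10%) and 7 lower (35%), against 3.8% and 12.1% of all genes. Ppargc1a and the receptor gene Adrb1 were at the upper end, and Nr4a1 (339 to 121) and Junb (913 to 347) were among the lower ones.

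Many extracellular matrix genes were lower at day 3. Of 31 collagen genes compared, 14 were at least 2-fold lower (45.2%, against 12.1% of all genes) and 2 higher (6.45%, against 3.8%). Their median was -0.86. Col5a2, a fibrillar collagen gene, fell from 42117 to 13629, whereas the basement membrane collagen gene Col4a1 had 69985 and 44137 (-0.67). The 2 higher ones were Col27a1 (1625 to 3699, 1.19) and the cartilage collagen gene Col10a1 (15.3 to 107, 2.73). Matricellular and elastic fiber genes were lower more often. Of 46 compared, 38 were at least 2-fold lower (82.6%, against 12.1% of all genes), with a median of -1.49. Sparc, a collagen-binding glycoprotein, fell from 108202 to 51335, the fibrillin gene Fbn1 from 23921 to 8562, the elastin gene Eln from 2745 to 1161, Thbs2 from 10041 to 2020.2 and Tnxb from 6002 to 901. Osteopontin (Spp1), the one higher member, had 300.4 and 636 (1.08), far less apart than at D0 (6.69).

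Proteases and small proteoglycans that shape the matrix followed. Of 20 genes for matrix proteases and their inhibitors, 13 were lower (65%, against 12.1% of all genes) and 1 higher (5%, against 3.8%). Their median was -1.61. Mmp2 fell from 38088 to 9539, its membrane-bound activator Mmp14 from 26483 to 5128, Timp2 from 17183 to 3599.5, Timp1 from 4695 to 845 and the aggrecanase gene Adamts5 from 6066 to 1489.5, so that proteases and inhibitors were lower side by side. Timp4 was the exception (66.2 to 139). Of 13 small leucine-rich proteoglycans, 9 were lower (69.2%) with a median of -1.46. Among them were biglycan (Bgn, 71453 to 25998), decorin (Dcn, 10242 to 2866) and Ogn (10827 to 2738), and Tsku was higher (951 to 1971). Integrin and laminin subunits had a median of -0.81 over 30 genes. Of these 14 were lower (46.7%), such as Lama2 (1274 to 325), and 2 higher (6.67%), Itgae (52.2 to 135) and Lamb3.

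Myofibroblast and progenitor genes were lower with the matrix. Of 24 contractile genes, 14 were at least 2-fold lower (58.3%, against 12.1% of all genes) and 2 higher (8.33%, against 3.8%). Their median was -1.13. Smooth muscle actin (Acta2) fell from 3669 to 783, Tagln from 1431 to 372 and Myl9 from 797 to 180.4, while the intermediate filament gene Des was higher (82.7 to 184). At D7 Acta2 and Tagln were within 2-fold (-0.67 and -0.43). Of 26 markers of adipose progenitors and stroma, 18 were lower (69.2%) and 1 higher (3.85%), with a median of -1.57. Pdgfra, the receptor that marks adipose precursors, fell from 20193 to 5840.1, Ly6a (Sca-1) from 9937 to 2092, Cd34 from 633 to 125, Thy1 from 1722 to 467, Clec3b from 2208 to 391 and Dlk1, also called Pref-1, from 1107 to 436. Nt5e (CD73) was the higher one (116 to 338). Whether fewer cells kept a precursor state or each cell held less of these RNAs cannot be told apart in bulk RNA.

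Secreted signals that act on precursors were lower in several pathways. Of 31 WNT pathway genes, 15 were at least 2-fold lower (48.4%, against 12.1% of all genes) and none higher (against 3.8%). Their median was -0.90, or -0.36 among members with a mean of at least 100. The ligand gene Wnt16 fell from 154 to 11.2, the WNT amplifier gene Rspo2 from 526 to 84.2 and the antagonist gene Sfrp1 from 6752 to 1492, while Wnt5a had 703 and 934. Of 20 insulin-like growth factor genes, 9 were lower (45%). Igf1 fell from 13226 to 5265 and its binding proteins Igfbp5 from 24040.5 to 3191, Igfbp3 from 19942 to 5403 and Igfbp6 from 4061 to 1007, whereas the insulin receptor gene Insr had 3743 and 5754 (0.62). Of 39 genes of the TGF-beta, BMP and activin pathway, 17 were lower (43.6%), such as Tgfb2 (891 to 188) and the activin subunit gene Inhba (302 to 52.6). The 2 higher ones (5.13%) were the low-count Bmp3 (10.2 to 44.9) and Gdf5 (52.2 to 117).

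Complement and acute-phase genes had medians of -1.82 and -1.80, and the complement median was -1.46 without a limit on counts. Of 19 complement genes, 12 were at least 2-fold lower (63.2%, against 12.1% of all genes) and none higher (against 3.8%). The factor B gene Cfb fell from 17618 to 3806 (-2.21, interval -2.26 to -2.17), C4b from 13183 to 2679 and C1rb from 179 to 10.5. Adipsin (Cfd), a complement factor made by fat cells, had 1984 and 2163, and Cd59a, which protects cells from complement, had 76.4 and 138. Of 16 acute-phase genes 13 were lower (81.25%), including Serpina3n (5443 to 597), Lbp (14677 to 3449) and Saa3 (14286 to 5281). Orm1 (549 and 907) and Steap4 (4341 and 6474) were above 0. Serpina3 genes, like C1ra and C1rb, are close copies whose reads may have been assigned to one another.

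Cytokine genes and the receptors that sense them were lower together. Of 21 cytokine and chemokine genes compared, 17 were at least 2-fold lower (81.0%, against 12.1% of all genes) and none higher (against 3.8%). Their median was -1.76, and a further 21 genes of the list were below the limit on counts. The monocyte attractant gene Ccl2 fell from 959.6 to 255 and the alarmin gene Il33 from 389 to 47.7, while Ccl25 had 111 and 117. Il6 was below the limit, with 28 raw counts without and 4 with FGF8, and Tnf had 1 and 0, too few to compare. Of 31 receptors, STATs and IRFs 16 were lower (51.6%) with a median of -1.01. Osmr, the oncostatin M receptor, fell from 3924 to 865, its partner Il6st from 9119 to 3201 and the IL-33 receptor gene Il1rl1 from 95.5 to 13.3. Stat5a (2463 and 3801) had the largest value above 0.

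Interferon-related genes were lower to unequal extents. Of 61 classical interferon-stimulated genes, 27 were at least 2-fold lower (44.3%, against 12.1% of all genes) and none higher (against 3.8%). Their median was -0.89. At D0 58 of 61 were lower, against 10.8% of all genes, with a median of -2.37. At D7 35 of 61 were lower, against 8.74% of all genes, with a median of -1.09. Slfn5 fell from 2086 to 499 and Irf7, the factor that amplifies interferon production, from 5891 to 2399, but Isg15 had 3090.2 and 1888 (-0.71) and Ifi27 had 10128 and 17128 (0.76). All 9 p200 genes compared were at least 2-fold lower, with a median of -1.40, such as Ifi205 (3269.6 to 693). Of 15 genes for GBP and IRG GTPases 7 were lower (46.7%). Tgtp2 fell from 588 to 111, while Gbp3, which had a value of -3.13 at D0, had 9969 and 10893 (0.13). Of 20 genes of MHC class I antigen presentation, 10 were lower (50%), with H2-T23 (4186 to 1292) and B2m (58298 to 22369) among them. The proteasome activator gene Psme2 was at 0.65 (2469 and 3862). Reads can be split among the members of the p200, GBP and MHC families.

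Sequence of interferon targets was shown for the same reason as above. The interferon-stimulated response element core GAAANNGAA, on either strand, lay in the windows of 26 of 48 classical interferon-stimulated genes (54.2%), against 8.57% of all genes with a window, 12.9% of genes at least 2-fold lower and 8.90% of genes at least 2-fold higher. Among the 22 interferon-stimulated genes that were at least 2-fold lower and had a window, 13 (59.1%) held it. The motif was not confined to interferon targets. It lay in 8 of 26 matricellular and elastic fiber genes (30.8%), near the 5 of 15 MHC class I genes (33.3%), but in 2 of 26 collagen genes (7.69%). The 4 most reduced members with the motif before their start are shown, with matches on either strand in capitals.
Slfn5 (chr11:82842771-82842830, plus strand): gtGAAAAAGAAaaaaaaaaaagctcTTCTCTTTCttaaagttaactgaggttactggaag
Phf11b (chr14:59578795-59578854, minus strand): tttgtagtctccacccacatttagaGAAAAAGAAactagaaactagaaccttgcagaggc
Oas3 (chr5:120915759-120915818, minus strand): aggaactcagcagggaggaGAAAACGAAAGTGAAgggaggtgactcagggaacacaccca
Ifit3 (chr19:34560802-34560861, plus strand): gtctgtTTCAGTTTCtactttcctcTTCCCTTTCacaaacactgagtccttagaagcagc
In Oas3 a pair of matches overlap. Phf11b had 346 and 97.6 normalized counts, Oas3 had 167 and 59.0, and Ifit3 had 5740.0 and 2091. The other motifs searched were less frequent in most groups. The STAT core TTCNNNGAA lay in 8 of 48 interferon-stimulated genes (16.7%, against 8.23% of all) and in 6 of 10 GBP and IRG genes. The NF-kB core GGGANTTCC lay in 3 of 14 cytokine and chemokine genes (21.4%, against 2.66%) but in only 1 of the 11 that were at least 2-fold lower (9.09%). The AP-1 motif TGANTCA lay in 8.85% of lower and 7.82% of higher genes, against 6.04%. It was more frequent in interferon-stimulated genes, with 11 of 48 (22.9%) and 8 of the 22 lower ones (36.4%). The STAT core can overlap the interferon motif. None of these matches is a measured site.

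Markers of other cells were examined beside these lists. Of 18 macrophage markers 4 were compared, and the summed level of the list was 293 normalized counts without and 185 with FGF8. Ptprc, Adgre1 and C1qa were at 0 counts in both, Csf1r (35.6 to 6.32) and Cd14 (127 to 44.2) were lower and Cd68 had 81.5 and 91.3. Of 14 endothelial markers 5 were compared (summed levels 616 and 281). Flt1, Kdr and Tek were lower, at -2.95, -2.69 and -2.61, and Egfl7 had 163 and 175 (0.10), while Tie1, Erg and Sox17 were at 0 in both libraries and Cdh5 at 1 count in each. None of 12 lymphocyte markers was compared, and pericyte markers summed to 3667 and 3670. Summed Schwann cell markers went from 7798 to 2837 through Ngfr (7323 to 2211), while the other 4 of the 5 compared lay above 0, such as S100b (237 and 305), and Sox10 had 0 and 1 counts. The nuclear RNAs Malat1 and Meg3, which can vary with RNA preparation, had values of -0.72 and -1.70, and Neat1 of -0.20. The part of these differences in the results above was not tested.

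The day 3 difference was set beside the course of untreated cells. Genes were classed by their change from D0 to D7 in untreated cells, without use of a day 3 library. Of 1538 genes that rose at least 4-fold in this course, 1250 (81.3%) were above 0 at day 3, 351 were at least 2-fold higher (22.8%) and 110 lower, with a median of 0.68. Of 567 that fell at least 4-fold, 43 were above 0, 343 were at least 2-fold lower (60.5%) and 4 higher, with a median of -1.19. The 10490 genes between had a median of 0.054, with 101 higher and 1053 lower. With classes set at 2-fold, 13.5% of the genes that rose were higher and 33.0% of those that fell were lower, the latter with a median of -0.61. The classes thus differ in direction, but 1053 of the 1557 lower genes belong to the class that changed less, and the untreated D0 library is also the one that carries the markers described at the outset.

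**Figure D4:**
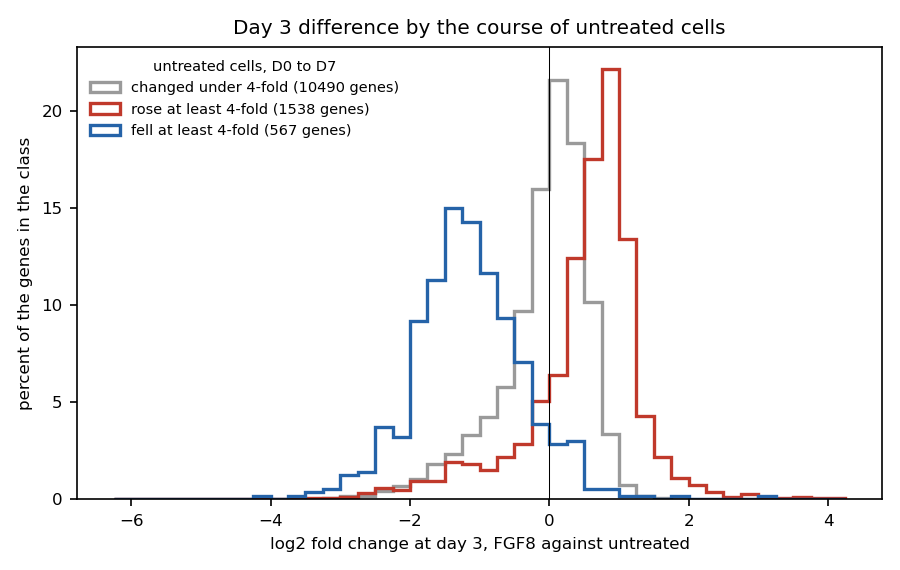
Percent of genes (y axis) in bins of 0.25 of the log2 fold change at day 3 (x axis, FGF8-pretreated against untreated), for genes that rose at least 4-fold from D0 to D7 in untreated cells (red, 1538), fell at least 4-fold (blue, 567) or changed less (grey, 10490). The red curve is centred above 0 (median 0.68) and the blue one below (-1.19).

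The genes that differed at day 3 were also compared on the other days. At D0, 920 genes (7.27%) were at least 2-fold higher after FGF8 and 1369 (10.8%) lower among those compared there, and at D7 146 (1.12%) and 1142 (8.74%). Of the 490 genes higher at day 3, 476 could be compared at D7, where 34 (7.14%) were at least 2-fold higher and 10 lower, with a median of 0.41. Of all day 3 genes that could be compared at D7, 0.713% were higher and 8.43% lower. Of the 304 that could be compared at D0, 78 (25.7%) were higher and 16 lower, against 5.88% and 10.0% of all day 3 genes compared there. Of the 1557 genes lower at day 3, 848 of 1437 (59.0%) were lower at D7 and 2 higher, with a median of -1.19, and at D0 591 of 1435 (41.2%) were lower and 97 higher. Among genes compared on all 3 days, 412 of 1352 lower genes were lower on both other days, and 11 of 303 higher genes were higher on both. Over all 11813 genes compared on the 3 days, 476 were lower and 24 higher on both other days, so the higher and the lower genes of day 3 each exceeded the background. Whether they differ in this was not tested. The pairs of the 3 days share no library.

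**Figure D5:**
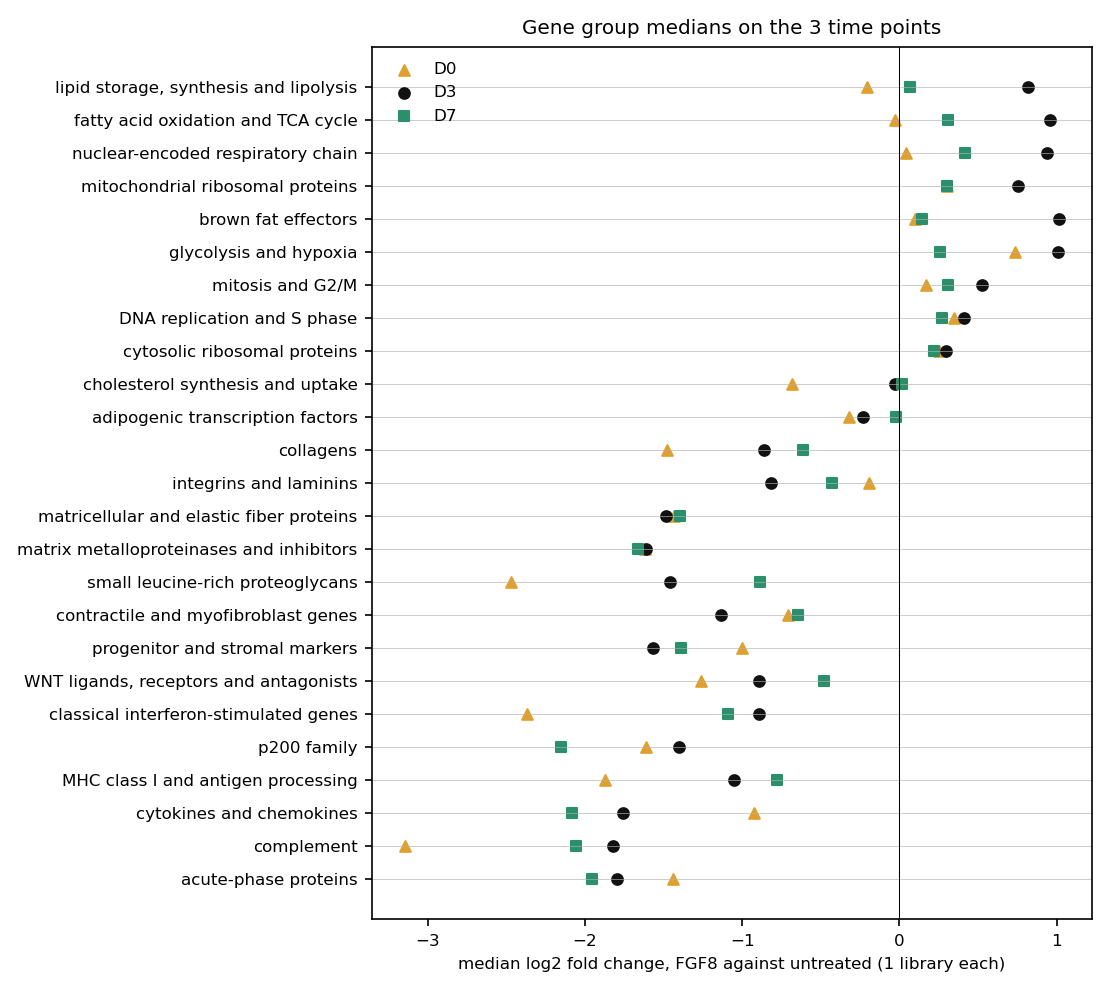
Median log2 fold change of FGF8-pretreated against untreated cells (x axis, 1 library each) for gene groups (rows) at D0 (orange triangles), D3 (black circles) and D7 (green squares). Lipid, fatty acid oxidation, respiratory chain, glycolysis and brown fat groups lay above 0.8 at D3 and nearer 0 at D7, while complement, chemokine and matrix protease groups stayed below -1 at D3 and D7.

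No chromosome stood apart at day 3. The median log2 fold change per chromosome ran from 0.0025 on chromosome 13 to 0.14 on chromosome 2 over 20 chromosomes.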

How the data were processed

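Bulk RNA was sequenced as 6 libraries, 1 per treatment and time point. The authors trimmed reads with TrimGalore, used HISAT2 for alignment to GRCm39 (mm39) and featureCounts for gene-level counting, and deposited raw counts. The tool versions, the annotation, the strand setting and the treatment of multimapping reads are not given in the sources used here. The labels' growth protocol describes white preadipocytes, whereas titles, tissue and methods describe brown cells. Gene positions came from GENCODE M39 for 23897 symbols (91.0%).

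Size factors came from the median-of-ratios method of DESeq2 (1.42.0) on all 6 libraries. Log2 fold changes are FGF8 minus untreated on the scale log2(normalized count + 1). Genes with a mean of at least 20 in the pair were compared, and 2-fold or more was counted. Intervals are exact 95% binomial intervals of the ratio of the counts. The fold step was tested on simulated data. Named genes are the 10 largest changes per direction at a mean of at least 100 (numbered or Rik models left out), the 5 largest gains and losses of counts, and up to 6 or textbook-defining members of 53 hand-written lists. Members, lists and rules were chosen with earlier results of these data known, and the motif ACGTG after the day 3 values were seen. Alternatives were TMM (edgeR 4.0.16), library totals, size factors within the pair, pseudocounts of 0.5 and 5, other limits on counts, thinning of the deeper library and 1.5-fold or 4-fold rules. Software versions were pandas 2.3.3, scipy 1.17.1, Python 3.11.15 and R 4.3.3. A shared origin of the libraries from 1 culture or several is not stated.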

Additional observations from a re-analysis of the deposited data

Results flagged for a closer look

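Among the 266 named genes and list members, 10 were at least 2-fold lower after FGF8 at D3 but at least 2-fold higher at D0. Each of the 10 had a counting interval wholly past 2-fold on both days. Of all 1435 genes lower at D3 and compared at D0, 97 (6.76%) were at least 2-fold higher there. Among all day 3 genes compared at D0 this share was 5.88%, so a reversal was about as frequent as an increase at D0 in general. The differences between days were not tested, since each value rests on 1 library a side, and the D0 libraries carry the markers that set them apart. The alarmin gene Il33 had 88.1 and 6194 normalized counts at D0 (6.12) but 389 and 47.7 at D3. The EGF family ligand gene Ereg had 3.86 at D0 and -2.86 at D3. The neurotrophin gene Bdnf had 2.16 and -1.63, the integrin gene Itgb2 2.17 and -2.33, and the ephrin receptor gene Epha2 1.61 and -1.82. The protease genes Mmp11 and Masp1 had 1.47 and 1.44 at D0 and -2.36 and -2.48 at D3. Rcan2 had 1.32 and -3.69, Ptgs2, the inducible cyclooxygenase, 1.29 and -1.55, and the proteoglycan gene Lum 1.25 and -1.60.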

How the results depend on the processing

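Of 222 named genes and list members past 2-fold at day 3, 12 fell under 2-fold under at least 1 of TMM, library totals, size factors within the pair, other pseudocounts or thinning of the deeper library. None changed sign, which genes chosen for a 2-fold difference could hardly do, since the scalings move all genes nearly alike. The count of higher genes was 298 with library totals, 1257 without a limit on counts, 2017 at 1.5-fold and 34 at 4-fold. Lower genes numbered 3199 without a limit, 2549 at 1.5-fold and 268 at 4-fold. Lower genes made up 85.6% of changed genes with library totals, 55.8% at 1.5-fold and 88.7% at 4-fold. With classes set at 2-fold, 13.5% of genes that rose from D0 to D7 were higher and 33.0% of those that fell were lower, with a median of -0.61 for the latter.

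With library totals, list medians were 0.71 for lipid storage, 0.85 for fatty acid oxidation, 0.83 for the respiratory chain, 0.90 for glycolysis and hypoxia, 0.30 for S phase, 0.42 for mitosis, 0.19 for cytosolic ribosomal proteins, 0.092 for ATF4 targets, 0.015 for antioxidant genes, -0.046 for adipokines, -0.14 for cholesterol, -0.15 for glucocorticoid targets, -0.20 for cell cycle inhibitors, -0.88 for GBP and IRG genes, -0.97 for collagens, -1.0 for interferon-stimulated genes, -1.01 for IGF genes, -1.16 for MHC class I, -1.51 for p200, -1.59 for matricellular genes and -1.72 for matrix proteases. Within the pair, lipid storage was at 0.78 and fatty acid oxidation at 0.92. At a mean of at least 100, the medians were 0.32 for adipokines, 0.17 for bone and cartilage, -0.22 for prostaglandin genes, -0.36 for WNT, -0.64 for IGF, -0.89 for cytokine receptors, -0.90 for MHC class I and -1.61 for acute-phase genes. Without a limit they were -0.32 for amino acid carriers, -0.44 for adipokines, -0.99 for the TGF-beta pathway, -1.04 for GBP and IRG genes, -1.20 for cytokines and -1.46 for complement. After thinning, lipid storage was at 0.86 and adipokines at -0.12. No paired analysis was possible because each condition is 1 library and the labels give no replicate numbers. The cause of these moves was not tested, and genes with few counts have wide intervals.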

Other observations

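Further gene groups were described at day 3. Amino acid response and unfolded protein response genes, 35 in all, had a median log2 fold change of 0.20. Among them 1 was past 2-fold, Trib3 (498 to 1345 normalized counts). At D0 21 of 35 were higher, against 7.27% of all genes there, with a median of 1.63. Asns, which makes asparagine, had 0.77 at D3 and 3.24 at D0, while the chaperone gene Calr had -0.67 at D3. Amino acid carriers had a median of -0.16 over 22 genes with 5 lower (22.7%, against 12.1% of all genes), such as the arginine carrier gene Slc7a2 (1114 to 361). Antioxidant genes had a median of 0.12 over 24. The mitochondrial superoxide dismutase gene Sod2 was higher (7160.3 to 14603), and Gpx3 (5012 to 1093) and Nqo1 (369 to 153) were lower.

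Of 17 prostaglandin genes 6 were lower (35.3%, against 12.1% of all genes), led by the prostaglandin carrier gene Slco2a1 (686 to 119), and none higher. Of 20 angiogenic and growth factor ligands 7 were lower (35%), with Vegfd from 4624 to 1250.2 and Hgf from 869 to 336, and Nrg4 was the 1 higher. Axon guidance genes had 16 of 39 lower (41.0%) and none higher (median -0.78), with Slit3 from 11808 to 3994, while Nrp2 had 1635 and 2396. Bone and cartilage genes were divided, with 4 of 14 higher (28.6%, against 3.8% of all genes) and 6 lower (42.9%, against 12.1%). Their median was -0.64, or 0.17 at a mean of at least 100. Runx2 (535 to 208), Sox9 (831 to 388) and Dlx5 (101 to 20.4), regulators of the skeletal lineages, were lower, and Col10a1 was higher. Of 18 skeletal muscle genes 3 were compared, Des being the 1 past 2-fold. Of 28 Hox genes 2 were higher (7.14%, against 3.8% of all genes), Hoxa9 (206 to 475) and Hoxb13 (35.6 to 81.4), and 1 lower (3.57%, against 12.1%).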
